A study of Rattus norvegicus with 8 samples.

Results

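Surviving neurons of the injured hippocampus were compared with neurons of sham-operated rats, gene by gene, on 2 arrays each. Surviving neurons were CA3 neurons that did not take up Fluoro-Jade, a dye that stains degenerating neurons, 24 h after fluid percussion brain injury. A gene entered the comparison when it carried a symbol and when both arrays of either group marked a probe for it as well above background. By that rule 13122 of the 18409 genes with a symbol on the array were compared, through 15998 probes.

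The rats were Sprague-Dawley, and the injury was a moderate fluid percussion, in which a pulse of fluid strikes the exposed dura. Sham rats were operated on without the pulse, and naïve rats, shown for reference beside the dying, Fluoro-Jade-positive neurons of the same injury, had no treatment. Brains were frozen 24 h later, and single cells were cut by laser from sections stained with Fluoro-Jade and cresyl violet, with about 600 surviving neurons from at least 3 rats in a pool. Each value is therefore a mean over a pool that mixes animals, the surviving cells lay next to dying ones, and the spread behind a p-value is that between 2 pools per group.

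CA3 pyramidal neurons carry strong recurrent excitation and are among the hippocampal cells most readily lost after head injury. Neurons that outlive the first day lie in tissue where microglia and astrocytes are activated, cytokines and interferons are released and blood proteins can enter. Injured neurons elsewhere in the nervous system are known to switch on neuropeptides, small heat shock proteins and growth-associated genes while they reduce parts of their synaptic and metabolic programme.

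Genes were ranked if called, well above background on all 4 arrays, not overlapping between groups and measured by a probe with a RefSeq accession. Symbols beginning with LOC, RGD or MGC were left out. Of the genes so ranked, the forkhead factor Foxe1 was the furthest above sham in surviving neurons, by 29.5-fold, though its naïve pools were uneven. The ribosomal protein Rps26 was the furthest below, by 77.8-fold. Genes known from inflammation and injury were also among those higher in surviving neurons: the iron-binding protein Lcn2 by 23.3-fold, the galectin Lgals3 by 14.3-fold, the neuropeptide galanin (Gal) by 14.2-fold and the small heat shock protein Hspb1 by 7.39-fold. Among 19 measured genes of interferon response and antigen presentation, 9 were called higher (47.4% against 17.4% of all genes) and 1 lower (5.26% against 24.3%). Lower in surviving neurons were the AMPA receptor subunit Gria2 by 11.1-fold, the oligodendrocyte protein Opalin by 12.5-fold and the ATP synthase subunit Atp5g3 by 13.7-fold. Among 25 measured genes of ubiquitin conjugation and removal, 13 were called lower (52.0% against 24.3% of all genes). Among 52 of splicing and RNA binding, 24 were called lower (46.2%). Of those well above background on all 4 arrays, 50% and 48.9% were called lower, against 31.9% of all genes so measured. With the median difference of all genes set to 0, the shares of the 2 lists were 44.0% and 26.9%, against 14.5%.

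Sham arrays had median signals of 16.5 and 16.4, against 52.4 and 48.3 on the surviving arrays. Probes well above background numbered 20922 and 20196 of 41012 on the sham arrays (51.0% and 49.2%) and 29389 and 27109 on the surviving arrays (71.7% and 66.1%). Replicates were alike within each group, with Pearson's r across 26914 probes of 0.976 for sham and 0.969 for surviving neurons, where probes are not independent replicates. All values given here are signals divided by the median of their array, called scaled signals. Signals of different probes do not rank genes by their transcript abundance, and sums over a list weigh its brightest probes most. Sham and naïve pools were hybridized on 1 slide and surviving and dying pools on another, which also had another version of the extraction protocol, and the effects of injury and of slide cannot be told apart. For amplification the labels give RiboAmp HS or MessageAMP II, without the kit of each pool, and the study's methods name MessageAMP II alone.

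In limma's test, adjusted over all probes tested, 2805 of the 15998 probes (17.5%) were called higher in surviving neurons and 3878 (24.2%) lower, at an adjusted p under 0.05. With the brightest probe standing for a gene, 2280 of 13122 genes (17.4%) were called higher and 3193 (24.3%) lower. The number of arrays, 2 in each group, limits the precision. Leaving out sham array 1 brought the probe counts to 1014 and 923, and leaving out sham array 2 to 1727 and 1979. A fit of all 8 arrays, in which the spread of the dying pools enters, called 1011 higher and 1355 lower.

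These totals turned on how the arrays were brought to a common scale. The median gene differed by -0.36 log2 between surviving and sham neurons, or 0.778-fold, after division by the array median. It differed by 0.41 after division by the 75th percentile, by 0.54 after division by the median of those probes that all 4 arrays marked as well above background, by 0.31 after quantile normalization, by 0.25 after cyclic loess and by 0.51 in the deposited series values. Of the probes called, 42.0% were higher under the array median, 76.1% under the 75th percentile, 80.5% under the median of probes above background, 68.0% after quantile normalization, 64.7% after cyclic loess and 79.4% in the series values. A direction therefore holds only relative to other genes, and for many genes the log2 difference is also given relative to the median gene, that is with the median difference of all genes at 0. For any other gene the relative value lies 0.36 above the difference given.

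Relative to the median gene, 2836 of 13122 genes (21.6%) were called higher and 1905 (14.5%) lower. Under every one of the scalings, 1616 genes (12.3%) were called higher and 839 (6.39%) lower. All genes named here as called kept their direction under all 7 scalings, and those whose call was lost are given at the end.

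**Figure D1:**
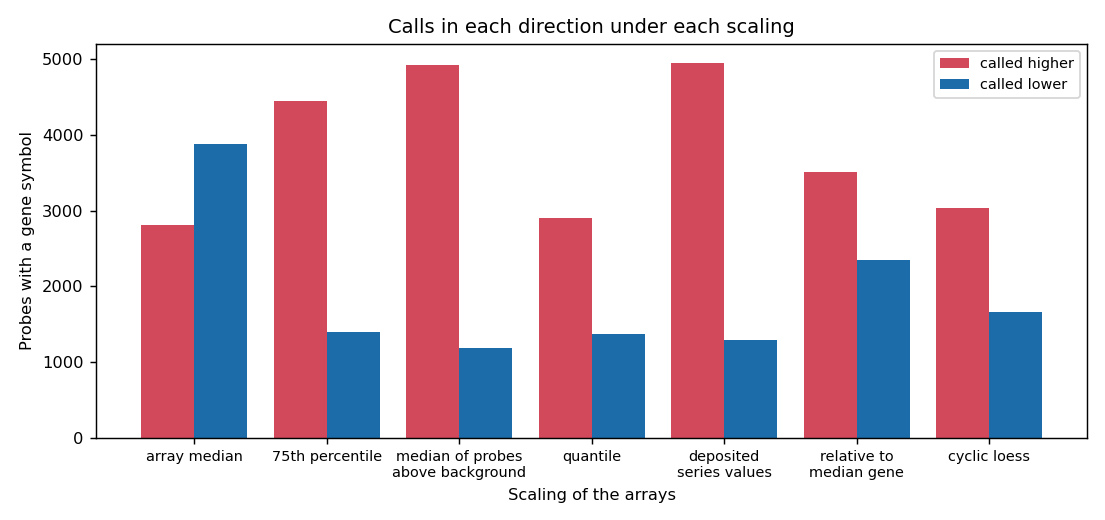
Probes with a gene symbol called higher (red) or lower (blue) in surviving neurons, counted on the vertical axis, under 7 scalings on the horizontal axis. Lower calls outnumber higher calls under the array median (3878 against 2805), and higher calls outnumber lower calls under the other 6.

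Dim genes were the ones that tended to be higher. Of the 2280 genes called higher, 1745 were well above background on no sham array. Such a gene entered the comparison through the surviving arrays alone, which favours higher values. This entry did not force them in every gene, as groups overlapped in Cx3cr1 (0.306 and 0.694 in sham, 0.616 and 0.396 in surviving neurons). How far it set the direction of the other genes was not tested. Entry through the surviving arrays alone holds for each higher call in several lists below. These are vessel, blood cell, interneuron, other hippocampal, GABA receptor, glutamate receptor, postsynaptic, release, respiratory chain and antioxidant genes. Among the 9363 genes well above background on all 4 arrays, 394 (4.21%) were called higher and 2987 (31.9%) lower, or 602 (6.43%) and 1738 (18.6%) relative to the median gene. A filter after the study's methods required replicates within 1.5-fold of each other, and its balance turned with the scaling. It gave 471 probes over 2-fold higher and 1423 lower relative to the median gene, and 1126 and 686 with the median of probes above background. Under the array median, 292 of 6203 probes (4.71%) were over 2-fold higher and 2262 (36.5%) over 2-fold lower. The higher count became 484 without surviving array 2, 452 without sham array 1 and 543 without sham array 2, and the lower count 3888 without surviving array 1. The median difference ran from 1.30 log2 in 2971 genes with a mean scaled signal under 1 to -0.88 in 2103 genes between 16 and 64 and -0.68 in 2760 genes over 64.

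**Figure D2:**
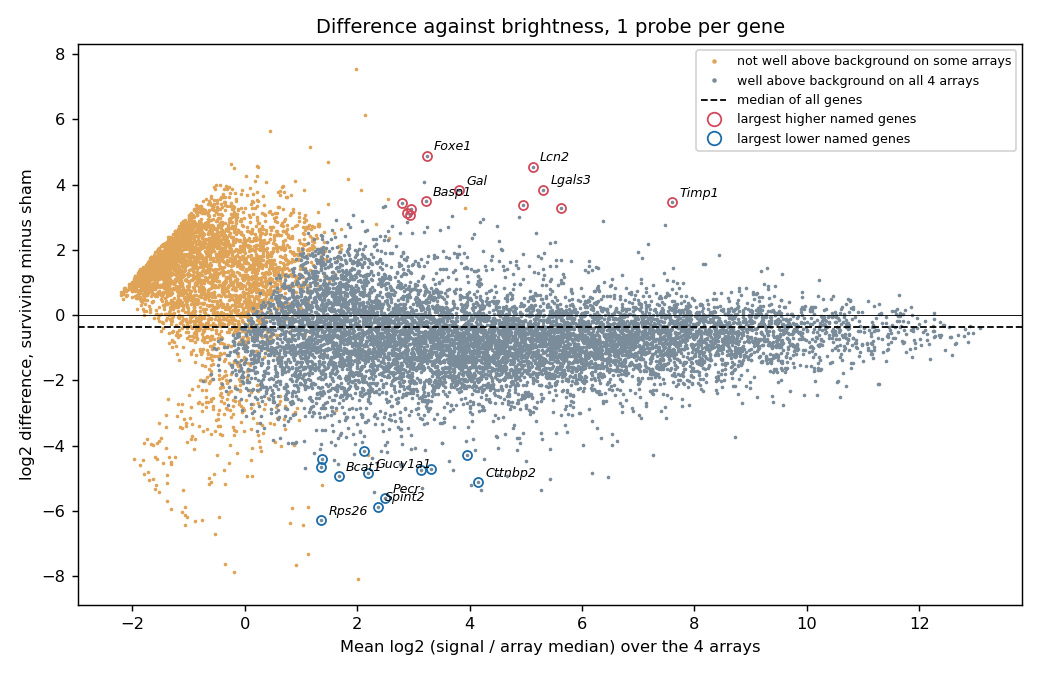
Each point is the brightest probe of a gene, with the mean log2 scaled signal over the 4 arrays on the horizontal axis and the log2 difference, surviving minus sham, on the vertical axis. Genes not well above background on every array (orange) lie at the dim end and mostly above 0, and the dashed line marks the median of all genes at -0.36.

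Several genes known from injury and inflammation were among the 12 of largest increase. Lcn2, a secreted protein that binds bacterial iron carriers and is induced in inflamed brain, had scaled signals of 9.69 and 5.38 in sham and 157 and 180 in surviving neurons. Both surviving pools were far above both sham pools, a log2 difference of 4.54, or 4.90 relative to the median gene (adjusted p = 0.00283). Dying neurons had 466 and 166 and naïve rats 1.92 and 3.86.

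Lgals3, a galactoside-binding lectin of activated phagocytes that injured cells can also express, measured 6.77 and 16.3 in sham and 153 and 147 in surviving neurons. That was a difference of 3.84, or 4.20 relative to the median gene (adjusted p = 0.00502), and dying neurons stood higher still at 452 and 332. Timp1, which inhibits matrix metalloproteinases, had 122 and 28.1 in sham and 1123 and 367 in surviving neurons. Its sham pools were uneven and lay above the naïve values of 7.70 and 16.2, and the difference of 3.46, or 3.82 relative to the median gene, passed with all 4 arrays (adjusted p = 0.0231) and not without sham array 2 (adjusted p = 0.0838).

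Galanin, a neuropeptide that axotomized neurons induce, was even within groups: 4.52 and 3.07 in sham, 52.5 and 53.1 in surviving, 199 and 196 in dying neurons and 3.41 and 3.50 in naïve rats. Sham and naïve pools were thus alike and both injured groups stood apart, with a difference from sham to surviving of 3.83, or 4.19 relative to the median gene (adjusted p = 0.00296). Hspb1, a small heat shock protein that holds unfolding proteins and protects axotomized neurons, had 26.8 and 34.5 in sham and 220 and 230 in surviving neurons (difference 2.89, relative 3.25, adjusted p = 0.00405). Here sham already lay above the naïve values of 3.89 and 8.49, and dying neurons had 253 and 431.

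The largest increase among the ranked genes was that of Foxe1, a forkhead factor known from thyroid development. It had 2.29 and 1.32 in sham and 58.0 and 45.5 in surviving neurons (difference 4.88, relative 5.25, adjusted p = 0.00244). Its naïve values of 0.672 and 8.22 and dying values of 11.2 and 68.5 were uneven. Tspo, the translocator protein of the outer mitochondrial membrane that serves as a marker of brain inflammation, had 1.58 and 2.87 in sham against 21.1 and 24.9 in surviving neurons (difference 3.43, adjusted p = 0.00449). The calcium-binding protein S100a4, linked to cell motility, went from 18.9 and 13.4 to 143 and 163 (difference 3.27, adjusted p = 0.00375), and its other 2 probes gave 2.28 and 3.67.

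The remaining genes among the 12 largest had differences between 3.08 and 3.49. They were Serping1, the inhibitor of the first complement protease, Sdc1, a heparan sulphate proteoglycan of the cell surface, Kcnn4, a calcium-activated potassium channel of microglia and other immune cells, Basp1, a membrane protein of growth cones, and G1p2, the array's symbol for the interferon-induced, ubiquitin-like protein Isg15. Basp1 was the least even, at 1.06 and 7.29 in sham and 49.9 and 19.7 in surviving neurons (adjusted p = 0.0325), and it missed the threshold without sham array 1 (adjusted p = 0.1002), under quantile normalization (0.0508) and cyclic loess (0.0506) and in the fit of 8 arrays (0.115). G1p2 missed it without sham array 2 (adjusted p = 0.105) and Sdc1 without sham array 1 (adjusted p = 0.0512). With spots flagged as non-uniform left out, Serping1 lacked a value on some of the arrays compared and could not be tested.

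**Figure D3:**
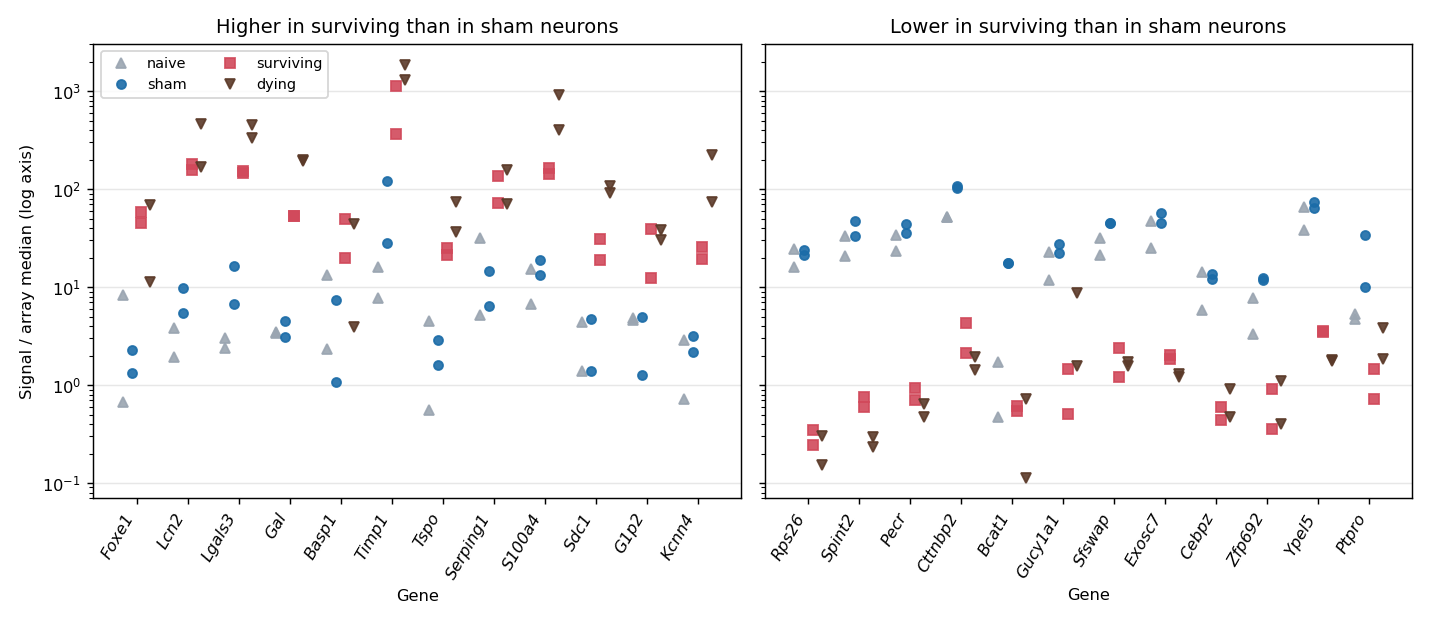
Scaled signal on a log axis for the 12 genes of largest difference in each direction, with each point an array of naïve rats (grey), sham rats (blue), surviving neurons (red) or dying neurons (brown). The genes were chosen for groups that do not overlap, and the values run from Foxe1 at 58.0 and 45.5 against 2.29 and 1.32 to Rps26 at 0.242 and 0.351 against 24.1 and 21.3.

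Interferons act through STAT and IRF factors, which switch on guanylate-binding proteins, antiviral enzymes, the immunoproteasome and the peptide transporters that load MHC class I. Of 19 measured genes of this list, 9 were called higher and 1 lower, 47.4% and 5.26% against 17.4% and 24.3% of all genes, and the list's median difference relative to all genes was 1.66. Among its 16 genes well above background on all 4 arrays, 7 were called higher (43.8% against 4.21% of all genes so measured) and 0 lower (against 31.9%), with a relative median of 1.29 against -0.36. Relative to the median gene the calls were 10 higher and 1 lower, 52.6% and 5.26% against 21.6% and 14.5% of all genes.

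Gbp2, a guanylate-binding GTPase, had 8.03 and 5.72 in sham and 67.2 and 40.4 in surviving neurons (difference 2.94, relative 3.31, adjusted p = 0.00567). Both immunoproteasome subunits called, Psmb8 and Psmb9, were higher: Psmb9 went from 15.6 and 25.1 to 56.8 and 55.1 and Psmb8 from 3.28 and 1.57 to 7.15 and 7.39. Their differences were 1.4995 (adjusted p = 0.0220) and 1.68 (adjusted p = 0.0271), and each missed the threshold when a sham array was left out, Psmb9 without array 1 (0.102) and Psmb8 without array 2 (0.0879). Psmb10, the other immunoproteasome subunit, had 417 and 367 in sham and 351 and 442 in surviving neurons, with overlapping groups and no call.

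Tap1 and Tap2, the transporter that carries peptides to MHC class I, were both called. Tap2 had 2.19 and 2.32 in sham and 5.78 and 5.31 in surviving neurons, and Tap1, with 0.321 and 0.332 against 1.57 and 1.35, was well above background on the surviving arrays alone. Cd74, the invariant chain of MHC class II, went from 3.50 and 8.46 to 20.5 and 18.7, and the 2′-5′-oligoadenylate synthetase Oas1a from 3.29 and 4.05 to 8.42 and 22.4. The class I light chain B2m did not move with them, at 701 and 431 against 496 and 590, and was not called. Ifit1, an antiviral protein, was the gene called lower, from 1.505 and 2.60 to 0.665 and 0.305 (adjusted p = 0.0212), and the call was lost without either sham array (0.0626 and 0.0957) and under 4 of the other scalings.

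Promoters of interferon genes called higher are shown for the regulatory letters they carry, as the 250 bases before the start of the gene in RefSeq's rat assembly GRCr8. Of the 9 interferon genes called higher, 8 had a promoter in that table. The letters searched, on both strands, were GAAANNGAA for the interferon response type, TTCNNNGAA for the STAT type, GAANNTTC for the heat shock type, TGANTCA for the AP-1 type and GGGNNTTCC for the NF-kappaB type. Among 27457 rat promoters of this length they were found in 7.99%, 7.52%, 7.02%, 6.36% and 5.16%. GAAANNGAA stood in 4 of the 8 promoters and TTCNNNGAA in 3. Over all 15 promoters of the list's measured genes, called or not, GAAANNGAA stood in 7 (46.7%) and TTCNNNGAA in 4 (26.7%), so that its presence did not set the called genes apart. Promoters with either of these letters are printed for 5 of the genes, Gbp2 at chr2:234005477-234005726 on the plus strand, Tap1 at chr20:4668544-4668793 on the minus strand, Tap2 at chr20:4652297-4652546 on the minus strand, Oas1a at chr12:41330216-41330465 on the plus strand and Irf1, the interferon regulatory factor, at chr10:38417685-38417934 on the plus strand. Capitals mark the letters found, GAAANNGAA on either strand in the first 4 and TTCNNNGAA in Oas1a and Irf1, with TGANTCA as well in Gbp2. In Oas1a the 2 GAAANNGAA overlap each other. The TTCNNNGAA of Psmb8, 245 bases before the start, is not shown.
Gbp2: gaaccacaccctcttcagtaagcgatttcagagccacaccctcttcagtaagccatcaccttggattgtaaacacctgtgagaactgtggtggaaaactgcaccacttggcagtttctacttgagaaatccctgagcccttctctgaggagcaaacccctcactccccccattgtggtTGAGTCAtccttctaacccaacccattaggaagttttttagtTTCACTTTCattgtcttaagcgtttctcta
Tap1: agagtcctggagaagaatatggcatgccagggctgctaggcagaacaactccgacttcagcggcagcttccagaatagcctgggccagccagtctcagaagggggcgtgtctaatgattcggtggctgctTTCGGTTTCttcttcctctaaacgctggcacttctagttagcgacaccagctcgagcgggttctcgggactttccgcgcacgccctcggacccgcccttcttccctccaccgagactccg
Tap2: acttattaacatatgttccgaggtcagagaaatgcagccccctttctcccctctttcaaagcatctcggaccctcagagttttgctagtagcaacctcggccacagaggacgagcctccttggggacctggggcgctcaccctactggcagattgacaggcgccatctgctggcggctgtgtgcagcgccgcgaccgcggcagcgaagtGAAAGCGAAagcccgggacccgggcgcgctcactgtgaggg
Oas1a: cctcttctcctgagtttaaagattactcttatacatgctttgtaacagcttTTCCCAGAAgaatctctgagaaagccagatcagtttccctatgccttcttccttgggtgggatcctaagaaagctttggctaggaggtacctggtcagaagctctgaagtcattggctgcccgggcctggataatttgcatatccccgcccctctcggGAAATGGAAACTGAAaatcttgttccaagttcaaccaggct
Irf1: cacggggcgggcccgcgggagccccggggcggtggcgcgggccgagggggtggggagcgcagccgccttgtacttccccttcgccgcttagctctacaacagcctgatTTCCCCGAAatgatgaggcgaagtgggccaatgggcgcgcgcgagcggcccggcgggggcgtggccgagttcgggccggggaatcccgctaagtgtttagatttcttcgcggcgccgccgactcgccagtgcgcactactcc
In Gbp2, Tap2 and Oas1a the interferon response letters lay 30, 41 and 41 and 35 bases before the start, and in Tap1 120 bases before it. Irf1 itself had 0.194 and 0.513 in sham and 2.03 and 1.39 in surviving neurons, well above background in the latter alone, and was at least 1.97-fold higher. The call for Irf1 was lost under quantile normalization (adjusted p = 0.0594), cyclic loess (0.0687) and normexp background correction (0.105) and without sham array 1 (0.0703).

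The Hspb1 promoter is shown because Hspb1 had the largest increase among 27 measured heat shock proteins and metallothioneins. It was the sole one of them called higher, 1 of 25 on all 4 arrays, a share near the 4.21% of all genes so measured, and relative to the median gene 2 others were called as well. The promoter lies at chr12:26432302-26432551 on the minus strand, and the capitals mark GAANNTTC, found at 129 and 109 bases before the start.
Hspb1: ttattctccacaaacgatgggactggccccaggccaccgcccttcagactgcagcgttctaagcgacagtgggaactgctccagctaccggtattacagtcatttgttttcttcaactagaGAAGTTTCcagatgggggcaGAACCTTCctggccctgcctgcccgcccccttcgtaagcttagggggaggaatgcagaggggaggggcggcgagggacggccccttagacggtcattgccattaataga
Of the 27, 10 were called lower (37.0% against 24.3% of all genes), or 10 of 25 on all 4 arrays (40.0% against 31.9%), with a relative median of -0.33. On all 4 arrays the relative median was -0.34, near the -0.36 of all genes so measured. Under every scaling 1 of the 27 was called lower, where 6.39% of all genes were. Hspa8, the constitutive Hsc70, fell from 3318 and 2771 in sham to 724 and 783 in surviving neurons (difference -2.01, relative -1.65, adjusted p = 0.00728), and the mitochondrial chaperonin Hspd1 from 721 and 605 to 197 and 226 (difference -1.65, relative -1.28, adjusted p = 0.0118). Without sham array 1 both missed the threshold, at 0.0508 for Hspa8 and 0.0688 for Hspd1, and Hspd1 did so under 5 of the other scalings too. The inducible Hspa1a had 158 and 95.9 against 101 and 74.6 and was not called.

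Cytokines, chemokines and their signalling genes had 14 of 31 measured genes called higher (45.2% against 17.4% of all genes) and 5 lower (16.1% against 24.3%), with a relative median of 1.39. Of the 22 well above background on all 4 arrays, 7 were called higher and 4 lower (31.8% and 18.2%, against 4.21% and 31.9% of all genes so measured), with a relative median of 0.75. Besides Lcn2, Lgals3 and Timp1, the higher genes included Il1rn, the natural antagonist of the interleukin-1 receptor, at 1.39 and 1.01 in sham against 11.6 and 4.56 in surviving neurons. The acute-phase transcription factor Cebpd had 48.0 and 43.3 against 154 and 105, and the matrix protease Mmp9 3.47 and 3.19 against 10.4 and 7.499.

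The chemokines Ccl3, Ccl4 and Ccl5, which attract monocytes and lymphocytes, were well above background in surviving neurons alone, with at most 2.50 there and at most 0.829 in sham. Ccl2, which draws monocytes, had 18.3 and 1.10 in sham against 45.6 and 29.7 and was not called (adjusted p = 0.0959), its sham pools differing widely. Cx3cl1, the neuronal chemokine that binds the microglial receptor Cx3cr1, stayed bright and level at 3221 and 2904 against 3126 and 3098.

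Genes called lower in the same list included Cxcl12, a chemokine made by neurons and vessels, which fell from 177 and 111 to 20.7 and 17.9 (difference -2.86, relative -2.50, adjusted p = 0.00514). Vcam1, an adhesion molecule of endothelium and astrocytes, fell from 125 and 72.2 to 19.8 and 28.2 (difference -2.01, adjusted p = 0.0141), which missed the threshold without sham array 1 (0.0748) and under the other scalings except the one relative to the median gene.

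Complement tags debris and synapses for removal by phagocytes. Of 20 measured complement genes, 5 were called higher (25% against 17.4% of all genes) and 0 lower (against 24.3%). Among the 13 well above background on all 4 arrays 2 were called higher (15.4% against 4.21%) and 0 lower (against 31.9%), with relative medians of 1.02 and 0.92. Among those called were the inhibitor Serping1, the component C5 and the receptors C3ar1 and C5ar1. Serping1 went from 14.5 and 6.44 to 72.7 and 136 (difference 3.37, relative 3.73, adjusted p = 0.00764), C3ar1 was at least 2.65-fold and C5ar1 at least 4.24-fold higher. A bound of this kind sets the dimmer group at the lowest signal that counted as well above background on its arrays, or at the gene's own signal where that was higher. The starting components C1qa, at 118 and 108 against 106 and 127, and C3, at 15.2 and 4.35 against 12.9 and 14.5, overlapped between groups and were not called. C1qb, at 80.6 and 66.8 against 94.7 and 130, and C1qc, at 5.56 and 5.48 against 11.3 and 7.37, were not called either. Both were higher on each surviving array than on each sham array, and groups did not overlap in 75.2% of all probes compared.

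Markers of microglia and macrophages were measured beside these genes, since such cells make many of them and lie against neurons cut from tissue, and fewer cells of a type and less RNA per cell cannot be told apart. Of 17 measured markers 3 were called higher and 2 lower (17.6% and 11.8%, against 17.4% and 24.3% of all genes), with a relative median of 0.67. Of the 14 well above background on all 4 arrays, 3 were called higher and 2 lower, with a relative median of 0.82 against -0.36. These shares were 21.4% and 14.3%, against 4.21% and 31.9% of all genes so measured. Their summed scaled signal was 778 and 630 in sham and 797 and 842 in surviving neurons, against 3816 and 2093 in dying neurons, and the brightest was the Fc receptor Fcgr3 at 319 and 198 in sham and 295 and 329 in surviving neurons. Cd68, a lysosomal protein of phagocytes, rose from 5.72 and 5.74 to 23.8 and 16.5 (difference 1.79, adjusted p = 0.0114), lysozyme (Lyz2) from 7.56 and 6.85 to 28.0 and 24.8 (1.87, adjusted p = 0.00820) and the adaptor Tyrobp from 20.8 and 23.7 to 61.4 and 50.9 (1.33, adjusted p = 0.0206). Aif1, also known as Iba1, fell from 31.9 and 33.2 to 12.3 and 9.47 (difference -1.59, adjusted p = 0.0137) and the lysosomal protease Ctss from 59.5 and 40.3 to 16.5 and 9.49 (-1.97, adjusted p = 0.0156). Both lower calls were lost under 5 of the other scalings, and the 3 higher calls held under all 7. Cd163, a receptor of perivascular macrophages, did not stand well above background on any array. The part of these cells in the higher inflammatory genes was not tested, and 4 of the complement genes, C1qa, C1qb, C1qc and Itgam, stand in both lists.

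Of 13 blood cell markers on the array 7 were measured, 2 of them called higher (28.6% against 17.4% of all genes), both well above background on no sham array, and 0 lower (against 24.3%). Of the 3 on all 4 arrays 0 were called. The list had summed scaled signals of 20.6 and 18.6 in sham and 35.7 and 26.4 in surviving neurons. The brightest was the T cell receptor chain Cd3d at 6.84 and 6.42 against 12.2 and 12.9, and Cd3e, Cd4 and Cd8a were well above background on no sham or surviving array. Haemoglobin beta (Hbb) had 3.998 and 4.42 against 7.36 and 4.15, with overlapping groups.

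Oligodendrocyte genes formed the list with the lowest median over all measured genes, but not among genes well above background on all 4 arrays. Of 12 measured, 0 were called higher and 8 lower (66.7% against 24.3% of all genes), or 7 of 11 among those well above background on all 4 arrays (63.6% against 31.9%), with relative medians of -1.15 and -0.87. Opalin, a membrane protein of these cells, fell from 84.4 and 92.1 in sham to 5.42 and 9.12 in surviving neurons (difference -3.65, relative -3.28, adjusted p = 0.00375) and Mog, on the outer face of myelin, from 161 and 188 to 20.4 and 23.5 (difference -2.99, adjusted p = 0.00375). Naïve rats had 72.0 and 75.0 for Opalin, near sham. The summed scaled signal of the list was 2655 and 2544 in sham and 493 and 523 in surviving neurons, a ratio of 0.195, or 0.251 relative to the median gene. Mbp, a major myelin gene, did not share this, at 12.2 and 19.4 against 12.8 and 11.8, with no call and a sign that turned with the scaling.

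Astrocyte markers were mixed. Of 13 measured, 2 were called higher and 5 lower (15.4% and 38.5%, against 17.4% and 24.3% of all genes), with a relative median of -0.64 and summed signals of 2551 and 1703 in sham and 822 and 923 in surviving neurons, led by the glutamate transporter Slc1a3. Relative to the median gene 2 were called higher and 2 lower (15.4% each, against 21.6% and 14.5% of all genes). Under every scaling 2 were called higher and 1 lower. Gja1, the gap junction protein connexin 43, fell from 148 and 84.7 to 10.8 and 13.1 (difference -3.23, relative -2.87, adjusted p = 0.00476). Gfap, the filament protein that reactive astrocytes accumulate, rose from 3.35 and 2.999 to 11.9 and 6.63 (difference 1.48, relative 1.85, adjusted p = 0.0285). Precursors of oligodendrocytes had 0 higher and 2 lower calls among 7 genes (28.6% lower, near the 24.3% of all genes), with sums of 645 and 484 against 293 and 311 and Olig1 the brightest.

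Vessel markers gave 3 higher and 3 lower calls among 13 measured (23.1% each, against 17.4% and 24.3% of all genes). On all 4 arrays they gave 0 and 2 among 9 (0% and 22.2%, against 4.21% and 31.9% of all genes so measured). Their sums were 193 and 150 in sham and 115 and 117 in surviving neurons. The receptor Kdr was brightest in the former and Vwf in the latter, and Abcb1a and Tek were well above background on no array. The list's relative median of -0.19 turned positive after quantile normalization and cyclic loess. The choroid plexus list, with 1 higher and 0 lower calls among 5 genes (20% higher, near the 17.4% of all genes), was set by transthyretin (Ttr), at 2.52 and 1797 in sham and 408 and 19.3 in surviving neurons, so that the 2 pools of each group differed by far more than the groups.

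Lists that kept a relative median above 0 under all scalings and background corrections run included those of inflammation, interferon response and complement. Lists that kept one below 0 included those of glutamate receptors, splicing, ubiquitin and oligodendrocytes. Under normexp background correction the relative medians of heat shock genes (0.13), neuropeptides and growth factors (0.05), regeneration (0.03), antioxidant defence (0.25), GABA receptors (0.07), the respiratory chain (0.26) and the proteasome (0.60) turned positive.

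**Figure D4:**
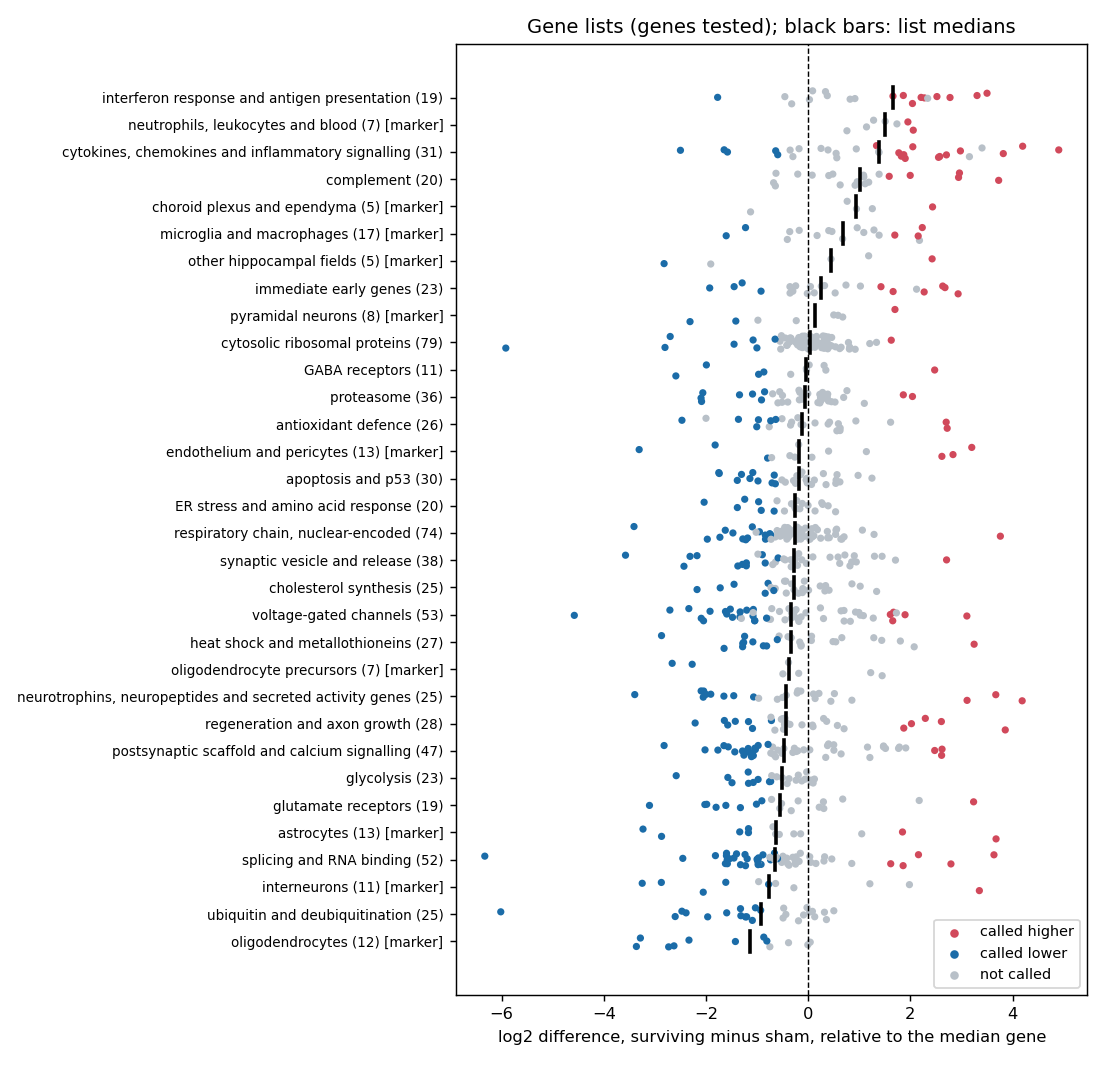
Log2 difference, surviving minus sham, relative to the median gene for each measured gene of 22 functional lists and 10 marker lists, with genes called higher in red, called lower in blue and not called in grey. Black bars are list medians, from 1.66 for interferon response and antigen presentation to -1.15 for oligodendrocytes, and several lists near 0 change sign under normexp background correction.

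Pyramidal neuron markers were well above background on all 4 arrays for 8 of 8 measured genes, with summed scaled signals of 13997 and 12023 in sham and 6731 and 6807 in surviving neurons, a ratio of 0.520, or 0.669 relative to the median gene. The fall of this sum lay mostly in Nrgn, Chn1 and Snap25: 1 gene of the 8 was called higher and 2 lower (12.5% and 25%, against 4.21% and 31.9% of all genes on all 4 arrays), 4 lay above the median gene and 4 below it, and the relative median was 0.13, or -0.41 with all probes of a gene averaged. Nrgn, the calmodulin-binding protein neurogranin and the brightest of them, had 8555 and 7744 against 5254 and 5515 and was not called (adjusted p = 0.151), and its sign turned with the scaling. Grik4, a kainate receptor subunit that marks CA3, was level at 28.3 and 27.7 against 37.9 and 31.9, and so was Camk2a at 29.3 and 23.3 against 33.4 and 24.7. Neurod2, a transcription factor of excitatory neurons, rose from 31.8 and 59.5 to 131 and 92.3 (difference 1.34, adjusted p = 0.0487). Chn1, a Rac regulator, fell from 3292 and 2688 to 775 and 969 (difference -1.78, adjusted p = 0.0107), a call lost under 3 of the other scalings, and Snap25, of the vesicle fusion machinery, from 2035 and 1441 to 473 and 152 (-2.68, adjusted p = 0.0175), a call lost without either sham array (0.101 and 0.0612) and under 5 of the other scalings.

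Interneuron markers were present too, with sums of 704 and 674 in sham and 207 and 205 in surviving neurons and parvalbumin (Pvalb) the brightest. Of 11 measured, 1 was called higher and 5 lower (9.09% and 45.5%, against 17.4% and 24.3% of all genes), with a relative median of -0.77. Reelin (Reln), secreted by a class of interneurons, fell from 70.4 and 61.3 to 10.5 and 4.60 (-3.24, adjusted p = 0.00641). Markers of other hippocampal fields had 1 higher and 1 lower call among 5 genes (20% each, near the 17.4% and 24.3% of all genes) and sums of 28.9 and 51.3 against 8.96 and 16.9, led in sham by calbindin (Calb1), while Prox1 of the dentate gyrus was well above background on no array.

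At the synapse, AMPA, NMDA and kainate receptors carry the excitatory current that drives CA3. Of 19 measured glutamate receptor genes 1 was called higher and 8 lower (5.26% and 42.1%, against 17.4% and 24.3% of all genes), or 0 and 8 among 16 on all 4 arrays (50% lower against 31.9%), with relative medians of -0.56 and -0.73 against -0.36 for all genes so measured. Gria2, the subunit that makes AMPA receptors impermeable to calcium, had 306 and 214 in sham, 27.3 and 19.5 in surviving, 5.50 and 8.88 in dying neurons and 124 and 131 in naïve rats. Surviving and dying pools were both far below both control groups, and the difference from sham to surviving was -3.47, or -3.11 relative to the median gene (adjusted p = 0.00382), with -2.52 on its other probe.

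The kainate subunit Grik2 fell from 10.96 and 11.8 to 2.32 and 2.15 (difference -2.35, relative -1.99, adjusted p = 0.00517). Grin1, the obligatory NMDA receptor subunit, was level at 1762 and 1290 against 1494 and 1392. The gene called higher, the kainate subunit Grik3, was well above background in surviving neurons alone and at least 1.49-fold higher. Gria4 was called lower on its brightest probe (-2.39) while its other probe gave 1.40.

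GABA receptors, which carry inhibition, had 1 higher and 4 lower calls among 11 genes (9.09% and 36.4%, against 17.4% and 24.3% of all genes), with a relative median of -0.04. Gabrd, the delta subunit of receptors outside the synapse, fell from 108 and 144 to 16.1 and 16.1 (difference -2.95, relative -2.59, adjusted p = 0.00403), and dying neurons, at 153 and 93.0, did not share the low values.

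Vesicle and release genes had 1 higher and 11 lower calls among 38 (2.63% and 28.9%, against 17.4% and 24.3% of all genes), with a relative median of -0.27. Postsynaptic scaffold and calcium genes had 3 and 17 among 47 (6.38% and 36.2%), with a relative median of -0.48. Among 38 postsynaptic genes on all 4 arrays, 0 were called higher and 17 lower (44.7%), against 4.21% and 31.9% of all genes so measured. The scaffold proteins Shank1 and Shank2 fell together, Shank1 from 30.0 and 32.6 to 7.05 and 7.24 (difference -2.13, relative -1.77, adjusted p = 0.00610) and Shank2 from 21.5 and 15.5 to 3.60 and 3.41 (-2.38, relative -2.02, adjusted p = 0.00594). Synapsin 1 (Syn1), which tethers vesicles, was the release gene called higher, at least 3.62-fold, with 0.605 and 0.613 against 2.16 and 4.43, and missed the threshold without sham array 1 (adjusted p = 0.0657) or array 2 (0.0530).

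Neuropeptides and growth factors were called in both directions. Of 25 measured genes 3 were called higher and 9 lower (12% and 36.0%, against 17.4% and 24.3% of all genes), with a relative median of -0.43. Trh, the thyrotropin-releasing hormone precursor, measured outside that list, had 0.207 and 0.681 in sham and 11.4 and 15.8 in surviving neurons and was at least 15.7-fold higher. The neuropeptide Y receptor Npy1r fell from 13.8 and 9.89 to 0.901 and 0.826 (difference -3.76, relative -3.40, adjusted p = 0.00293), and neurotrophin 3 (Ntf3) from 1.67 and 3.64 to 0.495 and 0.407 (-2.46, adjusted p = 0.0111), a call lost in the series values (0.0599) and with the median of probes above background (0.0585). On all 4 arrays 1 of 23, galanin, was called higher (4.35% against 4.21%). The other higher calls, Inhba, a subunit of activin, and the neurotrophin Ntf4, were well above background on no sham array and uneven in surviving neurons, Inhba at 0.173 and 0.198 against 4.41 and 0.762 and Ntf4 at 0.193 and 0.403 against 0.933 and 3.76, and both missed the threshold without sham array 1 (0.115 and 0.155) or array 2 (0.0872 and 0.0662).

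Immediate early genes, which code for factors that activity or stress induces within minutes, gave 6 higher and 4 lower calls among 23 (26.1% and 17.4%, against 17.4% and 24.3% of all genes). On all 4 arrays they gave 4 and 3 among 18 (22.2% and 16.7%, against 4.21% and 31.9%), with relative medians of 0.26 for the whole list and 0.08 for these. Atf3, induced by axon injury and stress, went from 5.29 and 1.30 to 11.6 and 14.6 (difference 2.32, relative 2.68, adjusted p = 0.0383), with 65.5 and 54.2 in dying neurons, and missed the threshold without sham array 2 (0.0777). The AP-1 member Fosb rose from 3.30 and 2.57 to 10.8 and 11.1 and Egr3, an activity-induced zinc finger factor, was at least 1.46-fold higher. Egr1, of the same family as Egr3, fell from 274 and 293 to 92.1 and 70.8 (difference -1.81, relative -1.45, adjusted p = 0.00987). Its call was lost without sham array 1 (0.0563) and under 4 of the other scalings, and no immediate early gene was called lower under every scaling.

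Regeneration and axon growth genes had 5 higher and 7 lower calls among 28 (17.9% and 25%, near the 17.4% and 24.3% of all genes) and a relative median of -0.44. Klf7, a transcription factor that promotes axon growth, rose from 47.7 and 89.7 to 330 and 188 (difference 1.93, relative 2.29, adjusted p = 0.0227), with 1.85 on its other probe, and missed the threshold without sham array 1 (0.112). Stmn1, which destabilizes microtubules, fell from 683 and 661 to 187 and 150 (difference -2.004, relative -1.64, adjusted p = 0.00746), with -2.28 on its other probe, and stood at 0.0508 without sham array 1. Cofilin (Cfl1), which severs actin filaments, fell from 90.9 and 59.6 to 12.7 and 12.01 (-2.58, adjusted p = 0.00571). Gap43, the growth cone protein, had 2320 and 1795 against 1025 and 906 and was called lower, but not relative to the median gene.

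The largest falls among the ranked genes on all 4 arrays were of genes of varied roles. Rps26, a protein of the small ribosomal subunit, had 24.1 and 21.3 in sham, 0.242 and 0.351 in surviving neurons, 0.153 and 0.301 in dying neurons and 16.004 and 24.6 in naïve rats. Both injured groups were near background, where the size of a fall is imprecise, and both control groups were about level. The difference from sham to surviving was -6.28, or -5.92 relative to the median gene (adjusted p = 0.00179). Spint2, an inhibitor of serine proteases, fell from 47.4 and 32.9 to 0.603 and 0.758 (difference -5.87, adjusted p = 0.00180) and Pecr, a peroxisomal enoyl-CoA reductase, from 44.0 and 35.7 to 0.706 and 0.934 (-5.61, adjusted p = 0.00179).

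Other genes among these 12 were Exosc7, a subunit of the RNA exosome, from 57.0 and 45.1 to 1.85 and 2.01 (-4.72, adjusted p = 0.00214), the transcription factor Cebpz (-4.64), Ypel5 (-4.29, with -2.55 on its other probe) and the receptor phosphatase Ptpro (-4.18). Dying neurons shared the low values of the first 3, and naïve rats had 24.8 and 46.8 for Exosc7. Ptpro, at 33.8 and 10.1 in sham and 1.47 and 0.713 in surviving neurons, had 3.85 and 1.85 in dying neurons and 5.33 and 4.76 in naïve rats. Bcat1, which transaminates branched-chain amino acids, also differed: sham had 17.8 and 17.4, surviving neurons 0.538 and 0.617 and naïve rats 0.469 and 1.71, so that sham was the group that stood apart.

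For some of these genes another probe gave another answer. Cttnbp2, a cortactin-binding protein of dendritic spines, fell from 107 and 104 to 4.32 and 2.12 on its brightest probe (-5.12, adjusted p = 0.00257), and its other probe gave 1.96. The splicing regulator Sfswap gave -4.73 and 1.71, the guanylate cyclase subunit Gucy1a1 -4.84 and 1.21 and the zinc finger protein Zfp692 -4.40 and -0.02. The positions of the probes on the transcripts were not used here.

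Such pairs were counted across genes. Of all 15998 probes, 17.5% were called higher and 24.2% lower. Of 2435 genes with several tested probes, the brightest was called higher in 156, where another probe was called higher in 76 (48.7%) and only lower in 12 (7.69%). It was called lower in 896, where another probe was also lower in 341 (38.1%) and only higher in 130 (14.5%). Across genes the differences of the brightest and the next probe had an r of 0.292, where genes are not independent replicates, and 61.8% lay on the same side of the median gene.

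**Figure D5:**
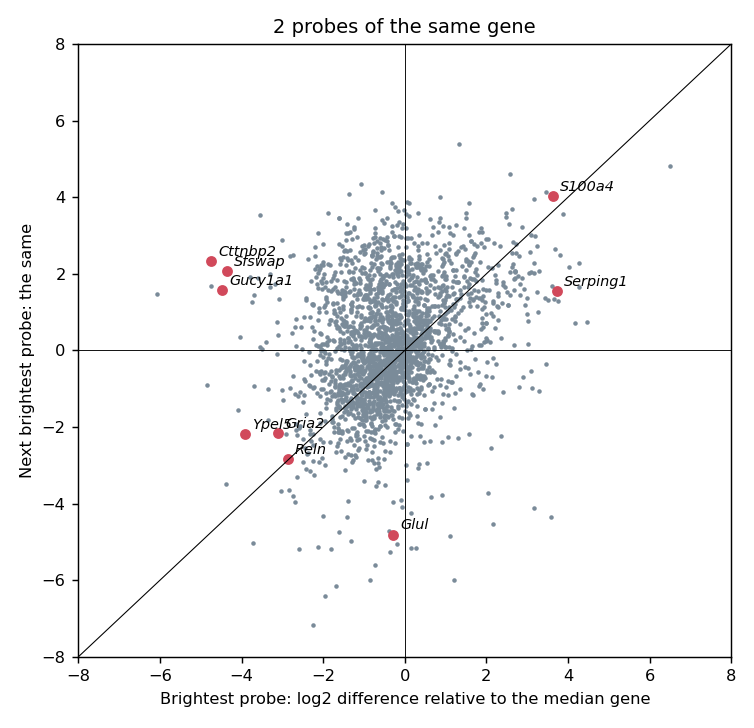
Log2 difference, surviving minus sham, relative to the median gene on the brightest probe of a gene (horizontal axis) and on its next brightest probe (vertical axis), 1 point per gene, with the line of equal values. S100a4, Gria2 and Reln lie on the same side with both probes, while Cttnbp2, Sfswap and Gucy1a1 are low on the brightest probe and high on the other (-5.12 and 1.96 for Cttnbp2 before the median gene is set to 0).

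Genes seen in a single group were read as bounds. In 3452 probes both surviving arrays and no sham array were well above background, and in 115 both sham arrays and no surviving array. Slamf9, an immune receptor of macrophages and dendritic cells, had 0.179 and 0.206 in sham and 8.98 and 10.4 in surviving neurons, at least 11.3-fold higher, and 37.1 and 15.4 in dying neurons. Cd8b, a T cell coreceptor chain, was at least 9.22-fold higher with 7.21 and 8.60 in surviving neurons, and the protocadherin Pcdhga9 at least 7.88-fold higher with 7.49 and 7.16. The olfactory receptor Or4c35 had the highest bound, at least 62.9-fold, from surviving pools of 754 and 3.83 that did not match each other, and oxytocin (Oxt), with 2.80 and 82.1, was not called (adjusted p = 0.0662). With spots flagged as non-uniform left out, Or4c35 lacked a value on some of the arrays compared and could not be tested.

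In the opposite direction, Rchy1, a ubiquitin ligase that acts on p53, had 30.0 and 25.4 in sham and 0.160 and 0.187 in surviving neurons, at least 108-fold lower on the array-median scale and 58.0-fold when arrays were scaled to those probes that each of the 4 marked as well above background. The nucleotide hydrolase Hint3 was at least 52.7-fold lower, or 28.3-fold on the latter scale, from 16.9 and 10.7, and Tob1, an antiproliferative regulator of mRNA decay, at least 43.1-fold, or 23.1-fold, from 12.2 and 9.93. Hnrnpll, a splicing regulator, followed at 27.7-fold, or 14.8-fold, the crystallin Crybb2 at 24.3-fold, or 13.0-fold, and the mitochondrial protein Lactb at 20.4-fold, or 10.96-fold. All 6 were as dim in dying neurons, at most 0.218, and brighter in naïve rats, at least 2.56.

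Ubiquitin conjugation and removal was the functional list with the lowest relative median over all measured genes. On all 4 arrays its relative median of -0.71 lay above the -0.73 of glutamate receptors. Of 25 measured genes 0 were called higher and 13 lower (52.0% against 24.3% of all genes), 11 of them relative to the median gene too, with a relative median of -0.93, and of 24 on all 4 arrays 0 and 12 (50% lower against 31.9%). Ube2n, which builds K63-linked chains, fell from 723 and 530 to 74.0 and 114 (difference -2.75, relative -2.39), Ube2b, a conjugating enzyme of DNA repair, from 5.72 and 6.65 to 0.625 and 0.996 (-2.97, adjusted p = 0.00484), and Uba1, the enzyme that activates ubiquitin, from 168 and 127 to 21.5 and 39.3 (-2.33, a call lost under 3 of the other scalings). Naïve rats had 1.49 and 0.124 for Ube2b, as low as surviving neurons, and its call was lost in the fit of 8 arrays (0.149) and in that of 6 without dying neurons (0.0770). The deubiquitinase Usp33 was called lower as well, with 17.1 and 15.1 in sham against 0.283 and 0.131, of which the latter value was not well above background. The polyubiquitin gene Ubb, at 10697 and 8593 against 6398 and 6677, was not called.

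The proteasome itself had 2 higher and 7 lower calls among 36 genes (5.56% and 19.4%, against 4.21% and 31.9% of all genes on all 4 arrays, as all 36 were), with a relative median of -0.06 that was positive after quantile normalization and cyclic loess. Both higher calls were the immunoproteasome subunits Psmb8 and Psmb9, and the lower ones included Psmd6, of the regulatory lid, from 75.7 and 68.8 to 11.6 and 14.8 (difference -2.46, relative -2.10, adjusted p = 0.00522) and Psma2, of the core, from 210 and 168 to 29.3 and 41.8 (-2.43, adjusted p = 0.00633).

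Splicing and RNA-binding genes gave 5 higher and 24 lower calls among 52 (9.62% and 46.2%, against 17.4% and 24.3% of all genes), or 2 and 23 among 47 on all 4 arrays (4.26% and 48.9%, against 4.21% and 31.9%), with a relative median of -0.66 in both. Relative to the median gene 14 were called lower (26.9% against 14.5%). Snrpe, a core protein of the spliceosomal particles, fell from 108 and 82.7 to 12.2 and 14.7 (difference -2.82, relative -2.45, adjusted p = 0.00454). Sf3b2, of the particle that recognizes the branch point, was higher at 68.3 and 70.7 against 13.1 and 30.7 (1.80, adjusted p = 0.0283) on its brightest probe and gave -0.57 on the other, and missed the threshold without sham array 1 (0.0994).

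Ribosomal proteins were level with the median gene as a group, with 1 higher and 7 lower calls among 79. The shares were 1.27% and 8.86%, against 4.21% and 31.9% of all genes on all 4 arrays, as all 79 were. Their relative median was 0.04, against -0.36 for all genes so measured, and -0.06 when all probes of a gene were averaged. Outliers stood beside this level majority: Rps26, Rpl34, which fell from 578 and 511 to 51.4 and 71.3 (-3.17, adjusted p = 0.00383), and Rps7, from 160 and 128 to 11.2 and 26.3 (-3.06, adjusted p = 0.00761, and 0.0564 without sham array 1). Rpl36 rose from 510 and 466 to 1269 and 1079 (1.26, adjusted p = 0.0228), a call lost without either sham array (0.0859 and 0.0858) and without surviving array 1 (0.0676).

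Glycolysis and pyruvate genes had 0 higher and 9 lower calls among 23, all on all 4 arrays (39.1% lower against 31.9% of all genes so measured), with a relative median of -0.51, and 3 were called lower under every scaling. Pdha1, the entry of pyruvate into the citric acid cycle, fell from 544 and 410 to 59.2 and 63.4 (difference -2.95, relative -2.58, adjusted p = 0.00403), Slc16a1, a transporter of lactate and pyruvate, from 14.6 and 10.9 to 3.18 and 3.43 (-1.94, adjusted p = 0.00877, and 0.0564 without sham array 1) and Pfkp, a phosphofructokinase, from 722 and 586 to 195 and 166 (-1.85, adjusted p = 0.00925, and 0.0594 without sham array 1).

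Nuclear genes of the respiratory chain had 1 higher and 14 lower calls among 74 (18.9% lower, under the 24.3% of all genes), or 0 and 14 among 73 on all 4 arrays (19.2% lower against 31.9%), with a relative median of -0.27. All genes on all 4 arrays had a lower relative median, of -0.36. Atp5g3, a subunit of the ATP synthase rotor ring, fell from 366 and 247 to 21.4 and 22.6 (difference -3.77, relative -3.41, adjusted p = 0.00304), with 6.19 and 11.6 in dying neurons and 218 and 344 in naïve rats. The complex I subunit Ndufs4 fell from 21.6 and 14.1 to 3.19 and 3.75 (-2.34, adjusted p = 0.00717). Cox8h, the heart form of a cytochrome oxidase subunit, was called higher, at least 2.42-fold, from signals near background in sham.

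The unfolded protein response had 0 higher and 6 lower calls among 20 genes (30.0% lower against 24.3% of all genes, and 31.6% against 31.9% on all 4 arrays), with a relative median of -0.25. The chaperone Hspa5, or BiP, had 1427 and 1196 in sham and 385 and 392 in surviving neurons (difference -1.75, relative -1.39, adjusted p = 0.00974, and 0.0607 without sham array 1). Dnajb9, its cochaperone, fell from 19.9 and 14.4 to 3.46 and 2.96 (-2.40, adjusted p = 0.00604), with -0.35 on another probe. Apoptosis and p53 genes had 0 higher and 10 lower calls among 30 (33.3% lower against 24.3% of all genes, and 38.5% against 31.9% on all 4 arrays), with a relative median of -0.19 and 5 lower calls relative to the median gene (16.7% against 14.5%). Casp2, an initiator caspase, fell from 99.6 and 93.3 to 20.6 and 24.4 (-2.10, adjusted p = 0.00655) and Bnip3, which drives removal of mitochondria, from 571 and 380 to 92.1 and 126 (-2.11, adjusted p = 0.00973, and 0.0605 without sham array 1). The cell cycle inhibitor Cdkn1a, a main p53 target, was level at 13.3 and 12.1 against 12.1 and 7.73, as was Bbc3, or Puma, at 34.2 and 25.2 against 23.1 and 16.6, and neither was called. On all 4 arrays the relative medians were -0.26 for the unfolded protein response and -0.23 for apoptosis and p53, above the -0.36 of all genes so measured.

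Antioxidant genes had 2 higher and 6 lower calls among 26 (7.69% and 23.1%, against 17.4% and 24.3% of all genes), with a relative median of -0.12. Srxn1, which repairs oxidized peroxiredoxins, was at least 4.45-fold higher, at 4.43 and 3.52 against 0.869 and 0.681, with 2.18 on its other probe. Nfe2l2, the transcription factor Nrf2 that drives Srxn1, fell from 9.86 and 5.29 to 1.14 and 0.896 (difference -2.83, relative -2.47, adjusted p = 0.00655). Prdx3, the mitochondrial peroxiredoxin, fell from 158 and 109 to 44.8 and 35.0 (-1.73, adjusted p = 0.0143, and 0.0782 without sham array 1), a call lost under 5 of the other scalings.

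Many of the calls above rest on the setting used. Of the genes named here that were called, Gap43, Kdr and Pvalb lost their call under all 6 other scalings, Aif1, Calb1, Ctss, Hspd1, Prdx3, Snap25 and Vcam1 under 5, Egr1, Ifit1 and Or4c35 under 4 and Chn1 and Uba1 under 3. Basp1, Inhba, Irf1, Ntf3 and Ntf4 lost it under 2 and Bnip3, Ccl3, Ccl5, Hspa5, Oas1a and Rps7 under 1. Beyond the losses given beside a gene, Aif1, C5, Calb1, Ccl3, Cd68, Cebpd, Gap43, Gfap, Il1rn, Kdr, Mmp9, Neurod2, Oas1a, Or4c35, Pvalb, Tap2 and Tyrobp missed the threshold without either sham array. Ccl4, Ccl5, Cd74, Chn1, Ctss, Reln and Uba1 missed it without sham array 1. Cebpd, Gap43, Gfap, Kdr, Mmp9, Neurod2, Pvalb, Tap2 and Tyrobp missed it without surviving array 1, and Ccl3, Gap43, Kdr and Oas1a without surviving array 2.

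In the fit of all 8 arrays Aif1, Atf3, Bnip3, C5, Calb1, Ccl3, Ccl4, Ccl5, Cd68, Cd74, Cebpd, Cfl1, Gap43, Gfap, Gria4, Hspd1, Ifit1, Il1rn, Inhba and Kdr were not called. Nor were Klf7, Mmp9, Neurod2, Ntf4, Oas1a, Prdx3, Psmb8, Psmb9, Pvalb, Rpl36, Sf3b2, Stmn1, Syn1, Tap2, Tyrobp, Uba1 and Vcam1. With normexp background correction the calls of Aif1, C5, Calb1, Ccl4, Ccl5, Chn1, Ctss, Egr1, Egr3, Gap43, Grik3, Hspa5 and Hspd1 were lost. So were those of Inhba, Kdr, Ntf3, Ntf4, Or4c35, Pfkp, Prdx3, Pvalb, Snap25, Syn1, Tap1, Uba1 and Vcam1. The fit of 6 arrays without dying neurons did not call Ccl3, Ccl5, Cd74, Gap43, Kdr, Klf7, Mmp9, Neurod2, Ntf4, Psmb9, Pvalb, Rpl36, Sf3b2, Syn1 and Basp1. A fit with the replicate number as a block did not call Atf3, Basp1, G1p2, Ifit1, Kdr, Klf7, Neurod2, Or4c35 and Pvalb.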

How the data were processed

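Per the file headers, the authors made the processed signal of each spot with Agilent Feature Extraction 9.1.3.1, with background and spatial trends removed and no normalization between arrays. The deposited mean intensity of the spots and median intensity of their local background served the alternative background correction alone. The deposited series table holds the processed signal divided by a constant per array, with medians of 0.131 and 0.149 in sham and 0.256 and 0.259 in surviving neurons.

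Processed signals were averaged per probe, divided by the array median, set to 0.01 where lower and taken to log2. Surviving and sham arrays were fitted with limma 3.58.1 in R 4.3.3 (2 residual degrees of freedom before moderation), two-sided, with Benjamini-Hochberg adjustment over 26914 probes at 0.05. Tables and figures were made with Python 3.11.15, and the test was tested on simulated data. The brightest tested probe stood for a gene, and symbols of 10727 of 23396 probes were read from their RefSeq accession.

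Named genes were, in each direction, the 12 of largest difference among called genes that all 4 arrays marked as well above background and that had a RefSeq accession and groups that did not overlap, the 6 of largest bound with a RefSeq accession, the 3 of largest difference in each of 22 functional lists, and all members of 10 marker lists. Symbols beginning with LOC, RGD or MGC were left out of the first 2 sets. Other list members were named after their values were seen, and some list members are not reported here. The genes compared and the lists were chosen with earlier results of these data known. Cyclic loess, the difference relative to the median gene and the calls under every scaling were chosen after seeing the data.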

Additional observations from a re-analysis of the deposited data

How the results depend on the processing

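Of the 15998 probes, 2805 were called higher and 3878 lower. Higher calls numbered 4454 with the 75th percentile, 4924 with the median of probes above background, 4956 in the series values, 588 among probes above background on all 4 arrays, 1011 in the fit of 8 arrays and 1699 in that of 6 arrays without dying neurons. Lower calls numbered 1398, 1191 and 1289 under those 3 scalings, 1368 with quantile normalization, 1128 with normexp background correction, 6495 with no filter, 1355 with 8 arrays, 2475 with 6, 1655 with cyclic loess, 2352 relative to the median gene and 1070 under every scaling. Leaving out an array gave 1014 to 3114 higher and 923 to 4019 lower, where the lone array of a group is assumed to vary like the other group. With replicate number as a block, 2537 were higher and 3598 lower, but the numbers do not pair the pools: deviations of replicate 1 in the 2 groups had an r of 0.0452 across probes, and 2 pairs are too few to test a pairing.

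By the methods' filter 292 probes were over 2-fold higher and 2262 lower. These were 440 and 3502 with replicates within 50%, 611 and 4215 with no replicate filter, 904 and 847 with the 75th percentile, 1126 and 686 with the median of probes above background, 905 and 812 with quantile normalization, 1094 and 460 with normexp, 1069 and 706 in the series values, 471 and 1423 relative to the median gene and 871 and 877 with cyclic loess. Leaving out an array gave 412 to 543 higher and 2407 to 3888 lower.

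List medians relative to all genes changed sign with normexp for neuropeptides and growth factors (0.0505), regeneration (0.0325), heat shock (0.13), antioxidant defence (0.25), GABA receptors (0.0749), the respiratory chain (0.26), the proteasome (0.60), cholesterol synthesis (0.0809), other hippocampal fields (-0.33), endothelium (0.19) and choroid plexus (-0.0259). They did so with quantile normalization for the proteasome (0.0922) and endothelium (0.16), with cyclic loess for the same lists (0.14 and 0.15), and with probes of a gene averaged for ribosomal proteins (-0.0561) and pyramidal neurons (-0.41). Of 125 named genes, Kcnh5 alone changed sign (-0.0739 with normexp), and 51 missed the threshold without sham array 1, 29 without sham array 2, 39 in the fit of 8 arrays, 37 with normexp, 30 with quantile normalization, 27 with the median of probes above background, 26 in the series values, 25 with cyclic loess and 21 with the 75th percentile. Signals near background limit the dim genes, and the cause of these changes was not tested.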

Other observations

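Voltage-gated channels, which shape the firing of CA3 neurons, had 5 higher and 18 lower calls among 53 measured genes (9.43% and 34.0%, against 17.4% and 24.3% of all genes), or 1 and 16 among 42 well above background on all 4 arrays (2.38% and 38.1%, against 4.21% and 31.9%), with relative medians of -0.33 and -0.51. The potassium channel Kcnh2, also known as ERG1, was called lower, with scaled signals of 4.36 and 7.45 in sham and 0.0912 and 0.378 in surviving neurons, 1 of them not well above background, and the calcium-activated potassium channel Kcnn2 had 11.3 and 5.68 against 0.922 and 0.989 (log2 difference -3.07, relative -2.71, adjusted p = 0.00583). In both, the surviving pools lay below the sham pools, and dying neurons were as low, at 0.149 and 0.384 for Kcnh2 and 0.123 and 0.900 for Kcnn2. The T-type calcium channel Cacna1h was higher, at 5.24 and 4.52 against 1.92 and 1.48 (1.53, relative 1.90, adjusted p = 0.0156), and missed the threshold without sham array 1 (0.0582) or array 2 (0.0693) and in the fits of 8 arrays (0.0879) and of 6 without dying neurons (0.0639).

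Cholesterol synthesis, which neurons share with glia, had 0 higher and 6 lower calls among 25 measured genes (24.0% lower against 31.9% of all genes on all 4 arrays, as all 25 were). The relative median was -0.28, above the -0.36 of all genes so measured, and no gene was called lower under every scaling. Sqle, the squalene epoxidase, had 306 and 229 in sham and 50.7 and 76.9 in surviving neurons (-2.08, relative -1.72, adjusted p = 0.00999). Without sham array 1 it missed the threshold, at 0.0641, and so it did under 3 of the other scalings.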
